A study of Mus musculus with 8 samples.

Results

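The comparison described here set regulatory T cells that carried a NIK transgene (NIKtg Treg) against wild-type regulatory T cells (WT Treg). Its members were chosen by title alone: 2 arrays of NIKtg Treg and 2 arrays of WT Treg, 4 of the 8 mouse arrays in the series. The other 4 arrays held conventional CD4 T cells (Tconv) of the same genotypes, 2 of each. All cells came from mixed bone-marrow chimeras on a C57BL/6 background, taken over 8 weeks after lethally irradiated B6.CD45.1 recipients (1200 rads in a split dose) had been given marrow from both donors. One donor was NIKtg/CD4Cre/foxp3RFP, in which Cre driven from the CD4-Cre transgene opens a Map3k14 transgene at the ROSA26 locus, and the other was B6.Thy1.1/Foxp3RFP. NIKtg Treg were sorted as RFP+ CD4+ GFP+ Thy1.1- cells and WT Treg as RFP+ CD4+ GFP- Thy1.1+ cells. All groups therefore carried the Foxp3 reporter and shared the irradiated host, and the 2 genotypes matured in mixed chimeras. The CD4-Cre transgene, GFP and the Thy1 allele differed between the groups together with NIK, and their effects cannot be told apart here. Since CD4-Cre acts in every T cell from its thymic stage on, the transgene was not limited to Treg.

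NIK (NF-kB-inducing kinase, gene Map3k14) is the kinase at the head of the non-canonical NF-kB pathway. It is normally degraded soon after it is made, and it builds up when receptors such as LTbetaR, BAFF-R, CD40 or OX40 are engaged. Stable NIK activates IKK-alpha, which drives processing of p100, the product of Nfkb2, into p52, so that p52 and RelB dimers enter the nucleus. Treg are CD4 T cells that restrain other lymphocytes under the control of Foxp3, and they rely on metabolic, adhesion and migration programmes that differ between resting cells and tissue or effector cells. The results below concern those programmes and how well different probes of a gene agreed.

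Each array was a 1-colour Illumina bead array, and levels are given as background-corrected, quantile-normalised log2 intensity. A fold change is the NIKtg Treg mean minus the WT Treg mean on that scale, given with its standard error (n = 2 arrays a group), and a gene was called at a limma Benjamini-Hochberg adjusted p under 0.05 over 7926 tested genes. The labels do not say whether the 2 arrays of a group came from separate animals, and the spread that the p-values rest on may therefore be technical. Each gene is represented by its brightest kept probe. Where a gene was not detected on either array of the dim group, only a bound is given, as at least N-fold, from that group's detection limit. Between 9826 and 10760 of 25697 probes were detected on each Treg array. Mean unnormalised intensity was 461 and 474 on the NIKtg Treg arrays against 565 and 566 on the WT Treg arrays. The medians overlapped, at 115 and 119 against 109 and 117. Before normalisation the mean therefore moved with genotype, while the median did not separate the groups. The part of this difference in the results was not tested.

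The 2 arrays of each group were closer to each other than to the other group, but NIKtg Treg 1 lay farther from WT than NIKtg Treg 2. Across genes, the WT Treg arrays correlated with r = 0.9941 and the NIKtg Treg arrays with r = 0.9886, whereas NIKtg Treg 1 correlated with the WT Treg arrays at 0.9605 to 0.9607 and NIKtg Treg 2 at 0.9722 to 0.9726. Of the genes called, 1067 (68.4%) were farther from WT on NIKtg Treg 1 than on NIKtg Treg 2. The corresponding share for WT Treg 1 against WT Treg 2 was 50.3%. Among genes called lower, 107 (14.4%) stood more than 0.5 log2 units lower on NIKtg Treg 1 than on NIKtg Treg 2. Values on both arrays are therefore printed for many of the genes described. The rest have only a fold change or a bound, which does not show the gap between the arrays.

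Markers of the sorted cells were checked first. Foxp3, the transcription factor that defines Treg, read 13.51 and 13.59 on the WT Treg arrays and 13.22 and 13.38 on the NIKtg Treg arrays, and it did not pass the test (adjusted p = 0.622). Cd4 was also not called (log2 fold change -0.06 ± 0.22, adjusted p = 0.863). The kept Map3k14 probe read 9.65 and 9.67 in WT Treg and 9.69 and 9.80 in NIKtg Treg (log2 fold change 0.09 ± 0.10, adjusted p = 0.578). By this probe NIK message was not detectably higher in NIKtg Treg, and the labels and files do not say whether this probe lies within the transgenic transcript. Nfkb2, which encodes p100, was higher by 1.01 ± 0.11 (adjusted p = 0.00216). Of 23 tested genes of the Treg identity list, 11 were called lower (47.8%) and 1 higher (4.35%), against 9.37% and 10.3% of all genes. Their median was -0.82, and -0.89 to -0.72 with 1 array left out. Of 11 tested pan T cell markers, 4 were called lower (36.4%, against 9.37% of all genes) and none higher. Cd247 was among the 4, and its probes disagreed in direction as described below. With median centring 1 of the 11 was lower, and with 1 array left out 1 to 3 were. The pan T cell markers had a summed linear level of 91800 to 92000 in WT Treg and 80800 to 81000 in NIKtg Treg. Of 11 tested myeloid and dendritic cell markers, 7 were called lower (63.6%, against 9.37% of all genes). Their summed level was 4170 to 4250 in WT Treg and 3330 to 3490 in NIKtg Treg, and the macrophage genes Adgre1, C1qa, C1qb and C1qc, with Tyrobp and Ly86, were below detection on both NIKtg Treg arrays. Fcer1g was the seventh. The 4 others, Lyz1, Lyz2, Siglech and Cst3, were detected on all 4 arrays and not called, with log2 fold changes of 0.47, 0.58, 0.30 and -0.34. With the replicate number as a block, Lyz1 and Lyz2 were called higher (adjusted p = 0.0313 and 0.0353). Itgam and Itgax, members of the myeloid and dendritic list that were not tested, were below detection on all 4 arrays. Of 5 tested B cell markers, 1 was called higher and 2 lower. That 1 was Cd74, which also belongs to class II presentation, and the other 4 summed to 1010 to 1100 in WT Treg and 599 to 627 in NIKtg Treg. Of those 4, Cd79b, Fcmr and Fcer2a were detected on all 4 arrays, and the first 2 were called lower. The other, Cd22, was not called. Of its 3 probes, 2 were detected on each WT Treg array, 1 on NIKtg Treg 1 and 0 on NIKtg Treg 2. Among B cell markers not tested, Cd79a was detected on NIKtg Treg 1 alone. Ms4a1, Pax5 and Blnk, which define B cells, were below detection on all 4 arrays. Of 9 tested CD8 and NK cell markers only Eomes was called, higher (log2 fold change 3.10). The sum over the 9 was 3510 to 3700 in WT Treg against 4140 to 5010 in NIKtg Treg. That sum includes Eomes, and no sum without Eomes was taken. Cd8b1 was detected on all 4 arrays and not called (0.24 ± 0.16, adjusted p = 0.329), while Cd8a and Ncr1 were below detection on all 4. In bulk samples, fewer cells of a type and less RNA per cell cannot be told apart, and the part of these markers in the results below was not tested.

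In all, 1559 of 7926 genes (19.7%) were called, 816 of them higher in NIKtg Treg (10.3%) and 743 lower (9.37%). Changes of at least 2-fold were found for 426 genes, of which 147 were higher and 279 lower. The median over all tested genes was 0.06. Leaving out an array moved the count: 494 genes were called without WT Treg 1, 517 without WT Treg 2, 603 without NIKtg Treg 1 and 1550 without NIKtg Treg 2. Calls that survived the loss of any 1 of the 4 Treg arrays are pointed out below as held in all 4 leave-outs.

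**Figure D1:**
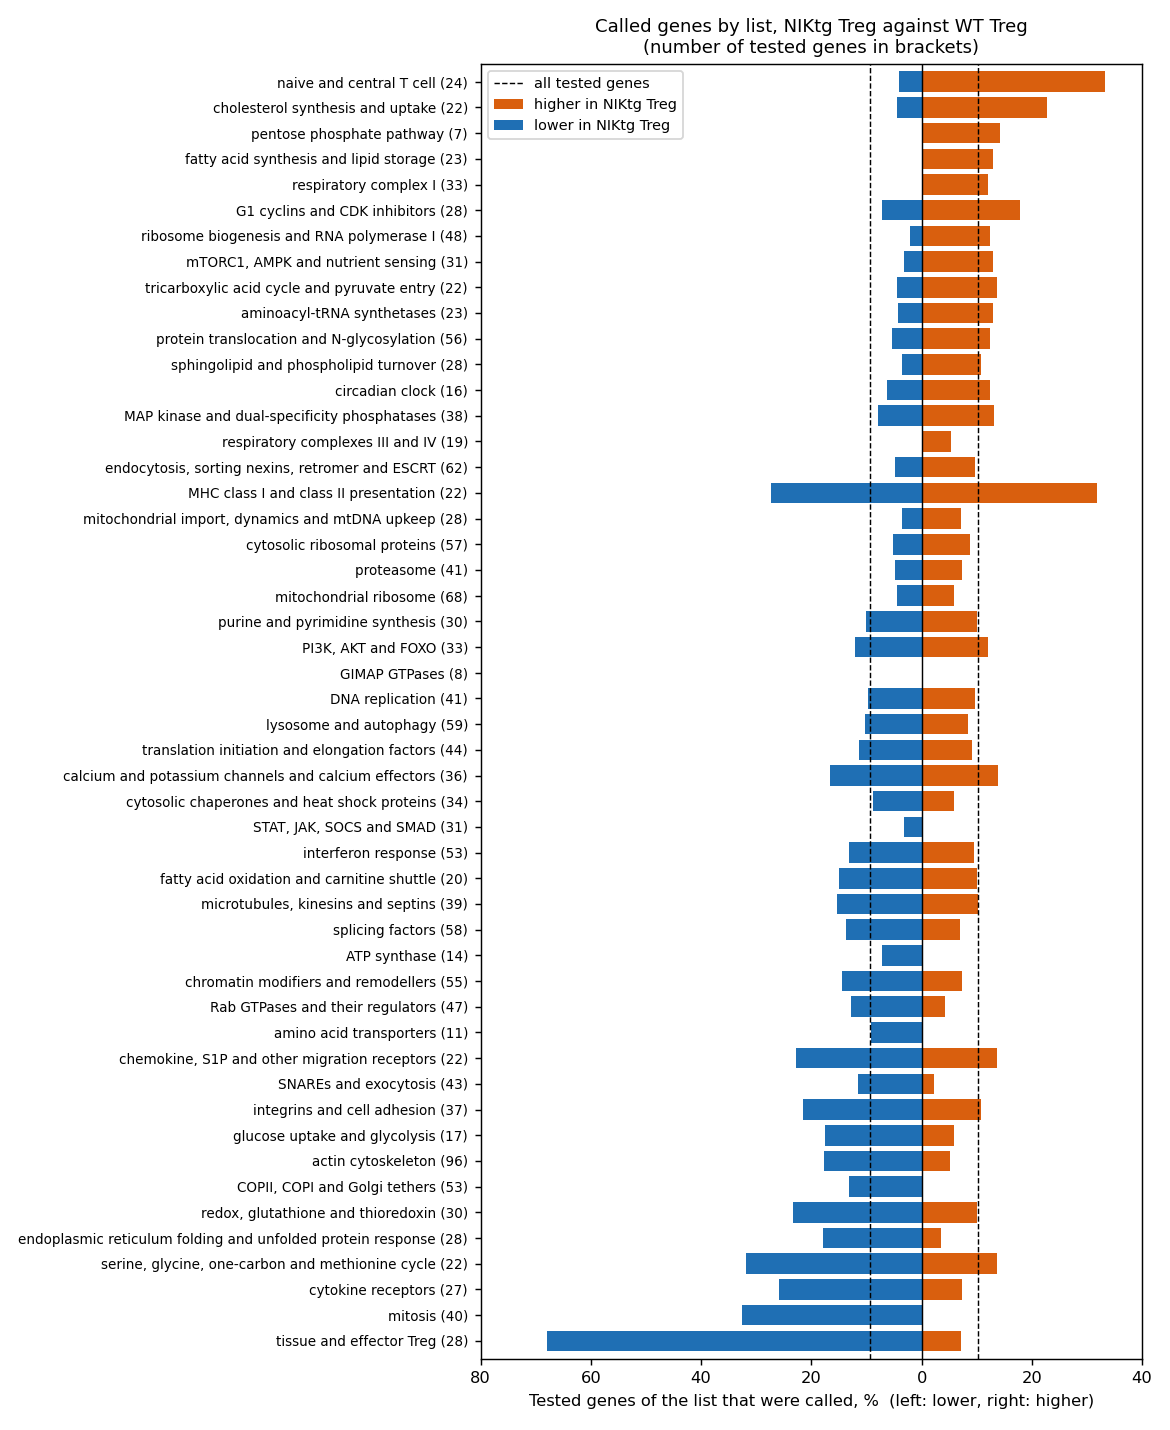
Share of the tested genes of each list that were called higher (right, orange) or lower (left, blue) in NIKtg Treg, in percent, with the number tested in brackets and the shares over all 7926 genes as dashed lines. Class II and class I presentation stood out on both sides, cholesterol synthesis and naive T cell genes to the right, and serine, redox, cytokine receptor, mitosis and tissue or effector Treg genes to the left.

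Antigen presentation genes moved in 2 directions. Of 22 tested genes of this list, 7 were called higher and 6 lower, against 10.3% and 9.37% of all genes, and the list's median was -0.08. All 7 that rose belong to the class II pathway, in which surface molecules present peptides from the endocytic route to CD4 T cells, and the 6 that fell belong to class I or to its peptide-loading machinery. H2-Eb1, the I-E beta chain, read 8.74 and 8.58 in WT Treg and 11.17 and 10.93 in NIKtg Treg. Both NIKtg arrays were more than 2 log2 units above both WT arrays (log2 fold change 2.39 ± 0.20, adjusted p = 0.00107). H2-Aa, the I-A alpha chain, went from 9.32 and 9.12 to 10.94 and 10.87 (1.68 ± 0.14, adjusted p = 0.00106).

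The sequences upstream of class II genes are shown because a shared promoter element, the Y box bound by NF-Y, is known to serve this gene family. RefSeq windows of 250 bases before the transcript start were read from GRCm38.p6 for 6 of the 8 tested class II genes. The letters CTGATTGG, searched on both strands, occurred in 3 of them, H2-Eb1, H2-Aa and H2-Oa, and in 3.83% of 32851 windows of that length. The shorter ATTGG, which CTGATTGG contains, occurred in all 6 and in 33.8% of windows. GGGNNTTCC, a short form of the NF-kB motif, occurred in the H2-Aa and H2-Oa windows and in 4.98% of all windows. A match describes the letters only. The 3 windows lie at chr17:34305617-34305866 (plus strand), chr17:34287824-34288073 (minus strand) and chr17:34092129-34092378 (plus strand), are written 5′ to 3′, and have CTGATTGG in capitals, starting 62, 51 and 46 bases before the transcript start.
H2-Eb1: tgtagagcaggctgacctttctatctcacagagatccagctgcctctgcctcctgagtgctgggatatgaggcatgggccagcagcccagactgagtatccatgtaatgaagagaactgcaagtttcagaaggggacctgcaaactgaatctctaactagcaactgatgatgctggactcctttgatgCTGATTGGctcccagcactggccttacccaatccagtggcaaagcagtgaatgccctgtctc
H2-Aa: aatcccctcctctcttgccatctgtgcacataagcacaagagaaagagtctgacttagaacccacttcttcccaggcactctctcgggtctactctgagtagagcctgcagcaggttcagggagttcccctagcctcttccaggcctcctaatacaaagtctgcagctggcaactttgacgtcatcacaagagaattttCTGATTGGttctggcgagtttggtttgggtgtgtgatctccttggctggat
H2-Oa: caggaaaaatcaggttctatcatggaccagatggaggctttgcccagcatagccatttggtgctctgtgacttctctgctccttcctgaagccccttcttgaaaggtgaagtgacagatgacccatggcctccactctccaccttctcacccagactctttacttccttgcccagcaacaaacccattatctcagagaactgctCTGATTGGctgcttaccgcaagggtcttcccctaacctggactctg

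The remaining class II genes ranged more widely in size. H2-Ab1, the I-A beta chain, rose from 8.42 and 8.50 to 10.31 and 10.05 (1.72 ± 0.16, adjusted p = 0.0014), and 2 of its other 3 kept probes were called in the same direction. H2-DMb1, a chain of the peptide exchange factor H2-DM, rose by 1.13 ± 0.15 (adjusted p = 0.00358). Cd74, the invariant chain that escorts class II to endosomes, rose from 10.79 and 10.58 to 11.81 and 11.66, and both of its probes were called. The genes H2-Ob and H2-Oa, whose products restrain H2-DM, rose by 0.91 ± 0.13 and 0.68 ± 0.13. H2-DMa, the partner chain of H2-DMb1, read 10.71 and 10.44 in WT Treg and 11.23 and 11.02 in NIKtg Treg and was not called (adjusted p = 0.102). Outside the list, H2-Eb2 was below detection in WT Treg and at least 2.56-fold higher in NIKtg Treg (adjusted p = 0.0014). H2-Eb1, H2-Ab1, H2-Aa, H2-DMb1, H2-Ob, H2-Eb2 and Cd74 held in all 4 leave-outs. In Tconv, 6 of the 7 class II genes that rose in Treg were also higher in NIKtg cells, and H2-DMb1 was lower there (-0.95, adjusted p = 0.0036), with 1 NIKtg Tconv array detecting it.

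On the class I side the changes ran from -0.35 to -1.25. Tapbp encodes tapasin, which holds class I molecules at the peptide transporter, and read 7.88 and 7.81 in WT Treg against 6.52 and 6.67 in NIKtg Treg (-1.25 ± 0.13, adjusted p = 0.00172). Its second probe, assigned to another transcript record, was not called (0.25), and neither was the mean of both (-0.50, adjusted p = 0.0921). Tap1, a subunit of that transporter, fell by 0.54 ± 0.11 (adjusted p = 0.0177), and the trimming peptidase gene Erap1 fell by 0.48 ± 0.10. The class I genes H2-Q8, H2-M3 and H2-T23 changed by -0.71, -0.44 and -0.35, and none of these 3 was called under median centring (adjusted p = 0.056, 0.136 and 0.404). H2-Q8 belongs to a family of near-identical genes, and the files do not say which members its probe reads. With 1 Treg array left out, 6 to 7 of the list were called higher and 1 to 4 lower, fewest lower without NIKtg Treg 1.

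**Figure D2:**
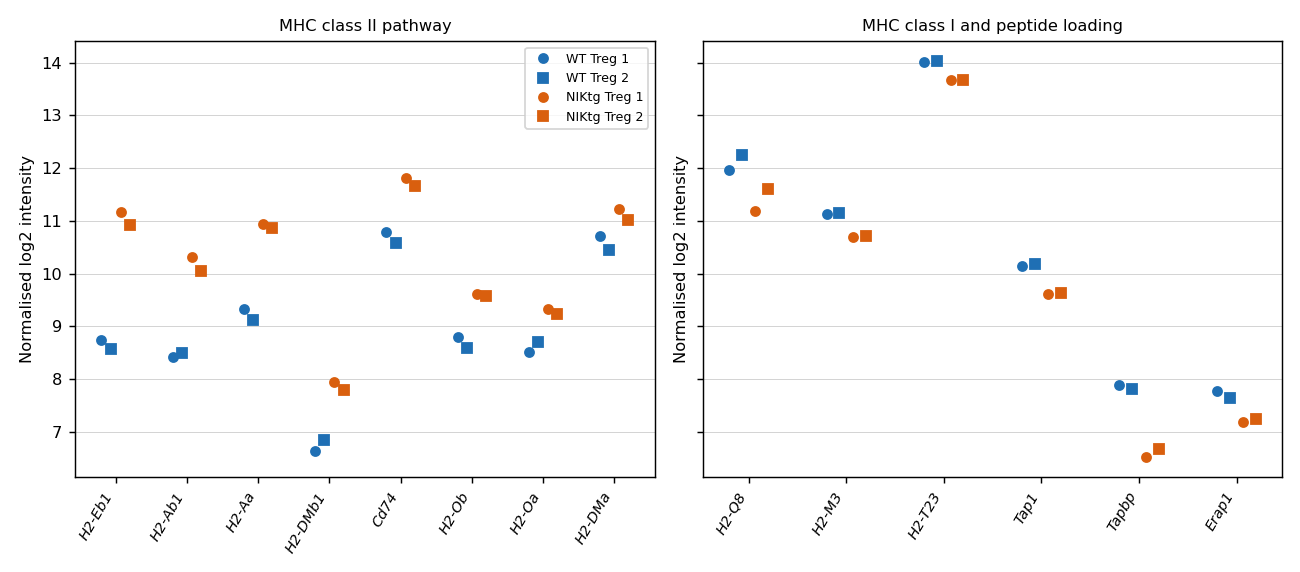
Normalised log2 intensity on each of the 4 Treg arrays for class II pathway genes (left) and class I and loading genes (right); circles are replicate 1 and squares replicate 2, blue for WT Treg and orange for NIKtg Treg. The orange points lie above the blue ones for all 8 class II genes, with H2-DMa not called, and below them for the 6 class I and loading genes.

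Genes of serine, glycine and one-carbon metabolism were called more often than most. This pathway builds serine from a glycolytic intermediate and passes its carbon to folates for nucleotide and methyl group synthesis. Of 22 tested genes, 7 were called lower (31.8%) and 3 higher (13.6%), against 9.37% and 10.3% of all genes. The list's median was -0.26 against 0.06 over all genes. Phgdh, which catalyses the first committed step of serine synthesis, read 7.61 and 7.52 in WT Treg and 5.86 and 5.75 in NIKtg Treg, where only 1 array detected it (-1.76 ± 0.19, adjusted p = 0.00197). Psat1, the next enzyme, went from 10.21 and 10.25 to 9.50 and 9.59 (-0.69 ± 0.11, adjusted p = 0.00737). Asns, which makes asparagine, went from 7.81 and 7.82 to 6.69 and 6.90 (-1.02 ± 0.16, adjusted p = 0.0064). For these 3 enzymes the NIKtg arrays lay close together and well below WT. Glud1, glutamate dehydrogenase, fell from 9.01 and 8.84 to 6.92 and 7.62 (-1.66 ± 0.28), with its dimmer probe not called (-0.07). Atf4, the transcription factor known to drive Phgdh, Psat1 and Asns in amino acid shortage, stood in the list of the unfolded protein response and read 9.41 and 9.58 in WT Treg against 7.19 and 8.09 in NIKtg Treg (-1.86 ± 0.31, adjusted p = 0.00847). Opposite to these, Shmt2, which moves serine carbon into mitochondrial folate, rose by 0.73 ± 0.17, Bcat2, the mitochondrial branched-chain aminotransferase, by 1.09 ± 0.13 and Ahcy, of the methionine cycle, by 0.83 ± 0.18. Phgdh, Asns and Bcat2 held in all 4 leave-outs, and with 1 array left out 3 to 7 genes of the list were called lower and 1 to 3 higher. In Tconv, Phgdh was higher in NIKtg cells by 1.39, and the effects differed between the cell types (adjusted p = 0.00049). Asns was also called higher in NIKtg Tconv, but it was below detection in WT Tconv, so no size is given.

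Redox genes leaned lower. Of 30 tested genes of the glutathione and thioredoxin systems, 7 were called lower (23.3%) and 3 higher (10%), against 9.37% and 10.3% of all genes. The list's median was -0.11. Glrx, glutaredoxin, which removes glutathione from proteins, was the most precisely measured: it read 12.76 and 12.68 in WT Treg and 11.36 and 11.50 in NIKtg Treg (-1.29 ± 0.10, adjusted p = 0.000966). Gstt3, a glutathione transferase, went from 7.86 and 7.97 to 6.01 and 6.03 (-1.89 ± 0.14, adjusted p = 0.000724). Srxn1, sulfiredoxin, which repairs peroxiredoxins, was below detection in NIKtg Treg and at least 1.11-fold lower (adjusted p = 0.00232). The pattern was not uniform among transferases. Gsto1 and Gstp1 fell by 0.80 ± 0.15 and 0.70 ± 0.15, Gstp1 shrinking to -0.24 and losing its call under the mean of its probes. In the other direction, Gstk1 rose from 7.66 and 7.90 to 8.75 and 8.65 (0.92 ± 0.13, adjusted p = 0.00495) and Mgst3, below detection in WT Treg, was at least 2.47-fold higher (adjusted p = 0.0271). Nfe2l2, the gene of the antioxidant regulator NRF2, fell by 0.65 ± 0.16. Gclm, a subunit of the enzyme that limits glutathione synthesis, rose by 0.42 ± 0.11. Neither was called by limma with no detection filter (adjusted p = 0.053 for Nfe2l2 and 0.0586 for Gclm). Mt1, a metallothionein, fell by 1.36 ± 0.32. Glrx, Gstt3, Srxn1 and Gstk1 held in all 4 leave-outs, in which 3 to 5 genes were lower and 1 to 2 higher.

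Cholesterol synthesis genes leaned higher. Of 22 tested genes, 5 were called higher (22.7%, against 10.3% of all genes), 1 was lower, 15 had a positive fold change, and the median was 0.21. Hmgcs1, which makes the HMG-CoA that enters the mevalonate pathway, read 10.74 and 10.69 in WT Treg and 11.63 and 11.43 in NIKtg Treg (0.82 ± 0.14, adjusted p = 0.00928). Fdps, farnesyl diphosphate synthase, went from 9.70 and 9.64 to 10.49 and 10.48 (0.82 ± 0.11, adjusted p = 0.00402). Idi1, Dhcr7 and Hsd17b7, at other steps of the pathway, rose by 0.68 ± 0.16, 0.57 ± 0.13 and 0.49 ± 0.12. The exception was Nsdhl, a demethylation step, which was below detection in NIKtg Treg and at least 1.5-fold lower (adjusted p = 0.00152). Fdps and Nsdhl held in all 4 leave-outs, and the count of increases ranged from 1 to 3 in them. In Tconv, 13 of the 22 genes were called lower in NIKtg cells, against 17.2% of all tested genes, and 13 differed between the 2 cell types, against 39%.

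**Figure D3:**
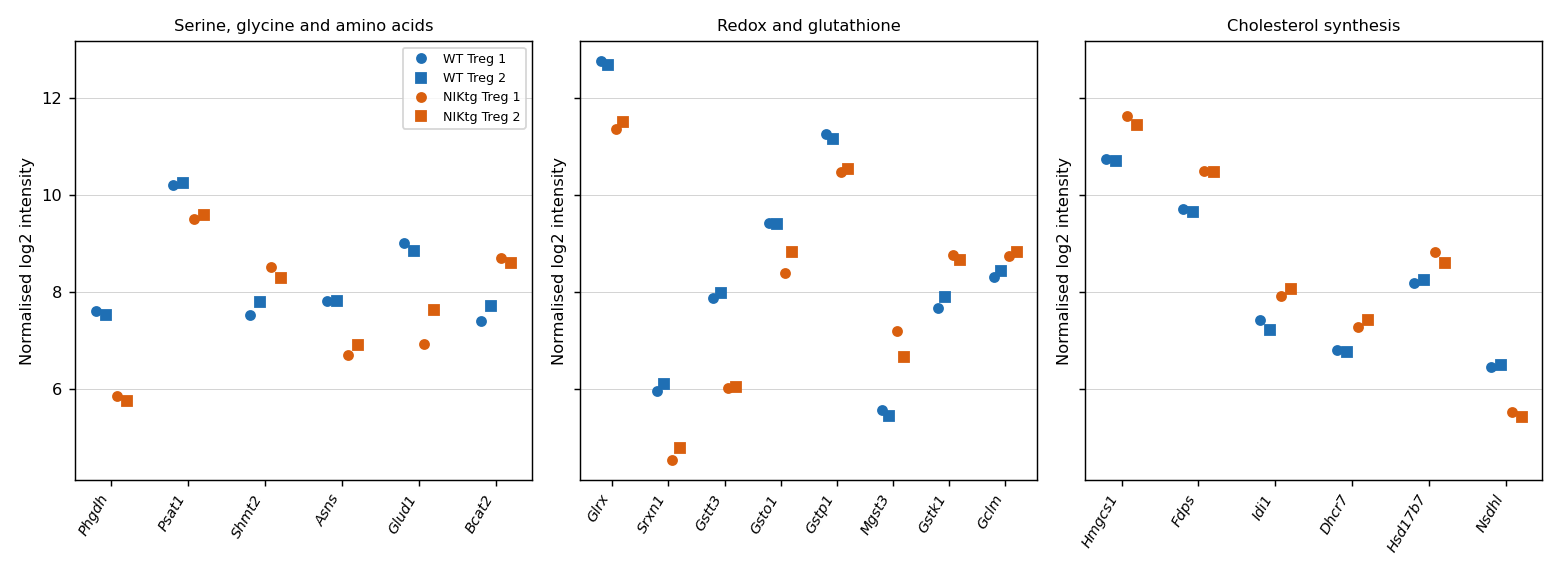
Normalised log2 intensity on each Treg array for named genes of amino acid metabolism (left), the redox systems (middle) and cholesterol synthesis (right), with symbols as in the plot of presentation genes. Phgdh, Psat1, Asns, Glud1, Glrx, Srxn1 and Gstt3 were lower on both NIKtg Treg arrays, and Hmgcs1, Fdps, Idi1, Dhcr7 and Hsd17b7 were higher.

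Central energy metabolism changed at single genes. In glycolysis, 1 of 17 tested genes was called higher and 3 lower. Eno3, the muscle form of enolase, read 7.67 and 7.74 in WT Treg and 9.79 and 9.33 in NIKtg Treg (1.86 ± 0.15, adjusted p = 0.00097). Pfkp, the platelet form of the rate-setting phosphofructokinase, fell from 9.17 and 8.73 to 6.98 and 7.56 (-1.68 ± 0.25, adjusted p = 0.00542), and its second probe fell too (-1.02). Aldoc, an aldolase, and Pgam1, phosphoglycerate mutase, fell by 0.58 ± 0.12 and 0.50 ± 0.12, and neither held in any leave-out, whereas Eno3 and Pfkp held in all 4. The mitochondrial lists moved little. Complex I had 4 of 33 genes higher and none lower, the largest being Ndufb10 at 0.53 ± 0.11, and none of the 4 remained without NIKtg Treg 1. In the lists of complexes III and IV, ATP synthase and the mitochondrial ribosome, 1 of 19, 1 of 14 and 7 of 68 genes were called, shares below the 19.7% of all genes. In fatty acid oxidation, 2 of 20 genes were higher and 3 lower: Acadm, the medium-chain dehydrogenase, rose by 0.61 ± 0.12, while the long-chain form Acadl fell by 1.34 ± 0.23, with its 2 dimmer probes not called (-0.39 and -0.38). In the list of lipid synthesis and storage, 3 of 23 were higher and none lower, led by Dgat2, which makes triglycerides, at 0.82 ± 0.10 (adjusted p = 0.00297), which held in all 4 leave-outs. Among mTORC1 and nutrient sensing genes, 4 of 31 were higher and 1 lower. Eif4ebp2, a translation repressor that mTORC1 inactivates, rose by 0.71 ± 0.13, and Ddit4, an mTORC1 inhibitor, fell by 0.42 ± 0.11.

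COPII and COPI coats carry cargo between the endoplasmic reticulum and the Golgi. Of 53 tested genes of these coats and their tethers, 7 were called lower (13.2%, against 9.37% of all genes) and none higher, and the median was -0.02. With the authors' normalised values 3 were called higher and 7 lower. Sec23b, an inner coat subunit of COPII, read 7.90 and 7.96 in WT Treg and 6.39 and 6.85 in NIKtg Treg (-1.31 ± 0.16, adjusted p = 0.00281). Tmed2, a cargo receptor, fell from 9.18 and 8.88 to 7.36 and 8.18 (-1.26 ± 0.28, adjusted p = 0.0217), with NIKtg Treg 1 the lower array. Kdelr2, which returns resident proteins to the endoplasmic reticulum, fell by 0.69 ± 0.12. The fall of Sec23b shrank to -0.48 and lost its call under the mean of its 2 probes (adjusted p = 0.0657). The paralogous Sec23a passed the test but was below detection in NIKtg Treg and near the limit in WT Treg, so no fold is given. Sec23b held in all 4 leave-outs, in which 1 to 6 genes were called lower, 2 of them without NIKtg Treg 1.

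Rab GTPases and their regulators steer vesicles to their targets, and 6 of 47 tested genes were lower and 2 higher, with a median of -0.12. Gdi2, which extracts Rab proteins from membranes, went from 7.43 and 7.27 to below detection and was at least 2.77-fold lower (adjusted p = 0.00123). Rabgap1l, a Rab GTPase-activating protein, was likewise at least 3.03-fold lower on its brightest probe (adjusted p = 0.0024), but its probe that was detected on all 4 Treg arrays was not called (-0.42, adjusted p = 0.184). Rab1b, which acts between the endoplasmic reticulum and the Golgi, fell by 0.87 ± 0.17 on its brightest probe, and the mean of its probes was -0.09 and not called. Rab3d, a Rab of regulated exocytosis, moved the other way, from 7.92 and 7.94 to 9.05 and 8.90 (1.04 ± 0.11, adjusted p = 0.00172). Gdi2, Rabgap1l and Rab3d held in all 4 leave-outs. Rab6a, a Golgi Rab, fell by 0.66 ± 0.18 on its brightest probe while its dimmest was called higher (0.61), and the mean of its probes was 0.10. Among SNAREs and exocytosis genes, 5 of 43 were lower and 1 higher, with Vamp5 at -1.03 ± 0.17. Lysosome and autophagy genes split 5 higher and 6 lower of 59. Ctsb, the protease cathepsin B, fell from 13.31 and 13.22 to 12.40 and 12.64 (-0.74 ± 0.11, adjusted p = 0.0064), and Sqstm1, the autophagy receptor p62, from 10.73 and 10.74 to 9.96 and 10.01 (-0.75 ± 0.11, adjusted p = 0.00532). Lamp1, a lysosomal membrane protein, rose by 0.61 ± 0.10, and Laptm4b, below detection in WT Treg, was at least 2.09-fold higher (adjusted p = 0.00484). Ctsb is also abundant in macrophages, whose markers fell as given above.

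Genes of protein folding in the endoplasmic reticulum had 5 of 28 lower and 1 higher, and 0 to 6 genes of the list were called lower with 1 array left out, 1 of them without NIKtg Treg 1. Beside Atf4, these were Pdia4, Pdia3 and Creld2, which assist disulphide bond formation or folding, at -0.71, -0.50 and -0.51, and Edem1, below detection on both NIKtg Treg arrays. In the list of protein translocation and glycosylation, 7 of 56 tested genes were higher (12.5%) and 3 lower (5.36%), against 10.3% and 9.37% of all genes. St3gal6, which adds sialic acid to selectin ligands, went from 7.56 and 7.54 to 9.06 and 8.93 (1.44 ± 0.21, adjusted p = 0.00582) and held in all 4 leave-outs. St3gal4, another sialyltransferase, rose by 0.96 ± 0.17. St8sia1, which makes the ganglioside GD3, was below detection in WT Treg and at least 1.56-fold higher, and lost its call under the mean of its probes (adjusted p = 0.0658). Gcnt1, which builds the core 2 O-glycans that carry P-selectin ligands, went the other way, from 6.39 and 6.14 to below detection, at least 1.31-fold lower (adjusted p = 0.00152), and St3gal1, which caps core 1 O-glycans, fell by 0.59 ± 0.16.

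Genes for cell migration and adhesion were called lower more often than most. Of 22 tested receptors for chemokines and other attractants, 3 were higher (13.6%) and 5 lower (22.7%), against 10.3% and 9.37% of all genes. Ccr6, the receptor for CCL20, read 9.98 and 9.94 in WT Treg and 11.36 and 11.40 in NIKtg Treg (1.42 ± 0.24, adjusted p = 0.00847), and its second probe rose too (0.92). Ltb4r1, the leukotriene B4 receptor, was at least 2.4-fold higher in NIKtg Treg than the detection limit of WT Treg (adjusted p = 0.003). P2ry14, a receptor for UDP-glucose, rose by 0.62 ± 0.14. Ccr8, a receptor of tissue and skin Treg, went the other way, from 6.70 and 6.76 to below detection, at least 1.8-fold lower (adjusted p = 0.00025). Cxcr4, the receptor for CXCL12, and Ccrl2, an atypical receptor, fell by 0.60 ± 0.12 and 0.74 ± 0.13. Ltb4r1 and Ccr8 held in all 4 leave-outs. In Tconv, Ccr6 and P2ry14 were lower in NIKtg cells, with log2 fold changes of -1.35 and -2.08, the second with 1 NIKtg Tconv array detecting it. Ltb4r1 was below detection in NIKtg Tconv.

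Integrins and adhesion molecules had 8 of 37 genes lower (21.6%) and 4 higher (10.8%), against 9.37% and 10.3% of all genes. Alcam, the ligand of CD6, went from 8.50 and 8.40 to 6.45 and 6.14 (-2.15 ± 0.20, adjusted p = 0.00149). Itgae, the CD103 chain that binds E-cadherin on epithelium, went from 11.92 and 11.88 to 10.52 and 10.56 (-1.36 ± 0.23, adjusted p = 0.00952). Itgb2, the shared beta chain of LFA-1 and Mac-1, fell by 0.86 ± 0.15, and Fermt3, kindlin-3, which activates integrins, by 0.82 ± 0.16. Higher were Pecam1 (0.72 ± 0.12, but 0.22 and not called under the mean of its probes), Icam2 (0.50 ± 0.13), Parva (0.81 ± 0.16), which links integrins to actin, and Apbb1ip (0.50 ± 0.14), which carries Rap1 signals to integrins. Alcam held in all 4 leave-outs, and the counts ranged from 3 to 9 lower and 1 to 4 higher.

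The actin list was the largest of those examined, with 17 of 96 tested genes lower and 5 higher and a median of -0.03. Capping proteins close the fast-growing end of actin filaments: Capzb went from 11.15 and 11.16 to 9.96 and 10.05 (-1.15 ± 0.10, adjusted p = 0.00126), but its second probe, for another transcript record, was not called (-0.22). Capza1 went from 8.51 and 8.57 to 5.72 and 7.09 (-2.13 ± 0.41, adjusted p = 0.0143). Msn, moesin, which ties actin to the membrane, went from 9.88 and 9.41 to 6.93 and 8.11 (-2.12 ± 0.36, adjusted p = 0.00856). Capza1 and Msn were more than 1 log2 unit lower on NIKtg Treg 1 than on NIKtg Treg 2. A smaller gap in the same direction was seen for Tpm3, a tropomyosin, at 9.08 and 9.87 in NIKtg Treg against 11.12 and 10.99 in WT Treg. Lcp1, L-plastin, also had a smaller gap, at 9.28 and 9.91 against 10.87 and 10.80. Of the 17 lower genes, 12 were lower on NIKtg Treg 1 than on NIKtg Treg 2, and 5 by over 0.5. Without NIKtg Treg 1, 8 genes were called lower and 3 higher, and over the 4 leave-outs 2 to 11 were lower. Higher genes included S100a4, a calcium-binding regulator of myosin, which went from 8.81 and 8.38 to 9.23 and 9.82 (0.93 ± 0.24, adjusted p = 0.0365). Under median centring in place of quantile normalisation the list split 12 higher and 12 lower.

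Cytokine receptors leaned lower, with 7 of 27 tested genes lower (25.9%) and 2 higher (7.41%), against 9.37% and 10.3% of all genes. The list's median was -0.22. Il10ra, the ligand-binding chain for IL-10, read 10.27 and 10.53 in WT Treg and 8.87 and 9.05 in NIKtg Treg (-1.44 ± 0.15, adjusted p = 0.0018). Il6ra went from 8.47 and 8.17 to 6.85 and 6.26 (-1.76 ± 0.27, adjusted p = 0.00669). Il17ra was below detection in NIKtg Treg and at least 1.86-fold lower (adjusted p = 0.00112), and all 3 of these held in all 4 leave-outs. Tgfbr1, of the TGF-beta receptor, fell by 0.79 ± 0.20 (not called under the mean of its probes, adjusted p = 0.0592), and Il2rb, the beta chain of the IL-2 receptor, by 0.66 ± 0.16. The high-affinity chain Il2ra was not called, at 10.97 and 11.35 in WT Treg and 10.87 and 11.01 in NIKtg Treg (adjusted p = 0.689). Il7r, the IL-7 receptor, rose from 12.14 and 12.39 to 12.95 and 12.94 (0.68 ± 0.12, adjusted p = 0.0118). In Tconv, NIKtg cells had higher Il10ra, by 2.62 (adjusted p = 9.5e-05), and lower Il6ra, at -1.66.

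Calcium and potassium channels and their effectors had 6 of 36 genes lower and 5 higher. Kcna3, the potassium channel Kv1.3 that sustains calcium entry in effector T cells, was below detection in NIKtg Treg and at least 1.48-fold lower (adjusted p = 0.00185). Atp2b1, the plasma membrane calcium pump, was at least 2.2-fold lower (adjusted p = 0.00654). Nfatc1, the calcium-dependent transcription factor NFAT2, went from 11.53 and 11.83 to 10.44 and 10.53 (-1.20 ± 0.13, adjusted p = 0.00188), and all 4 of its kept probes were called lower (-0.60 to -1.61). Those 3 genes held in all 4 leave-outs. In the list of MAP kinases and their phosphatases, 5 of 38 were higher and 3 lower. Dusp10, a phosphatase of JNK and p38, rose from 6.58 and 6.10 to 7.31 and 7.31 (0.97 ± 0.17, adjusted p = 0.0108), while Dusp14, below detection in NIKtg Treg, was at least 1.15-fold lower and Dusp6, which acts on ERK, fell by 0.60 ± 0.15. Of 31 STAT, JAK, SOCS and SMAD genes only Jak2 was called (-0.67 ± 0.15), and none of 8 GIMAP genes was.

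Lists of resting and dividing cells moved in opposite directions. Of 24 tested genes of naive and central T cells, 8 were called higher (33.3%) and 1 lower (4.17%), against 10.3% and 9.37% of all genes. Their median was 0.60. Tdrp read 7.29 and 6.98 in WT Treg and 9.34 and 9.01 in NIKtg Treg (2.04 ± 0.22, adjusted p = 0.00214). Atp1b1, a sodium pump subunit, went from 8.08 and 7.42 to 9.80 and 9.39 (1.85 ± 0.28, adjusted p = 0.0066), and Dapl1 from 7.15 and 7.13 to 8.56 and 8.23 (1.26 ± 0.17, adjusted p = 0.00381). Klf2, the transcription factor that maintains recirculation of resting T cells, rose by 0.65 ± 0.10. Tdrp, Atp1b1, Dapl1 and Nsg2 (0.81 ± 0.12) held in all 4 leave-outs, in which 5 to 6 genes of the list were called higher. In Tconv, 17 of these 24 genes were called lower in NIKtg cells, against 17.2% of all genes. On the other side, 13 of 40 mitosis genes were lower (32.5%, against 9.37% of all genes) and none higher, with a median of -0.41. That median was -0.49 to -0.31 with 1 array left out. These genes were dim, with a median WT Treg level of 6.61, against lowest detected values of 5.56 to 5.94 on the Treg arrays. With probes detected on all 4 Treg arrays, 6 of 22 were lower and 1 higher, with a median of -0.22. Cenpa, the centromeric histone, went from 11.35 and 11.45 to 10.62 and 10.79 (-0.70 ± 0.11, adjusted p = 0.00709). Kif15, a spindle kinesin, was below detection in NIKtg Treg and at least 1.7-fold lower (adjusted p = 0.00197). DNA replication genes were balanced, 4 higher and 4 lower of 41. The CDK inhibitor Cdkn1a (p21) rose by 0.90 ± 0.15, with 1 WT Treg array detecting it, and Cdkn2d by 0.65 ± 0.16. Of 28 genes of tissue and effector Treg, 19 were lower (67.9%) and 2 higher (7.14%), against 9.37% and 10.3% of all genes. Their median was -1.19.

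Death regulators split 5 higher and 7 lower of 33 tested genes. Bik, a BH3-only killer gene, was below detection in WT Treg and at least 2.38-fold higher (adjusted p = 0.00688). Bbc3, which encodes PUMA, and Tnfrsf10b, the TRAIL receptor, rose by 0.80 ± 0.17 and 1.04 ± 0.29. Bcl2, the protective member of naive T cells, rose from 11.28 and 11.40 to 11.88 and 11.91 (0.55 ± 0.13, adjusted p = 0.027), but not under the mean of its 6 probes (0.30, adjusted p = 0.142), whereas Bcl2l1, which encodes the protective Bcl-xL, was below detection in NIKtg Treg and at least 1.52-fold lower (adjusted p = 0.0413). Bcl2a1d and Bcl2a1c, near-identical copies whose probes may share signal, fell by 1.05 ± 0.22 and 0.71 ± 0.13. Bik held in all 4 leave-outs, and Bcl2 and Bcl2a1d in none. The interferon list split 5 higher and 7 lower of 53. Ifitm3, which blocks virus entry, went from 6.67 and 6.64 to 8.90 and 8.45 (2.02 ± 0.15, adjusted p = 0.000724), and the guanylate-binding protein gene Gbp2b from 9.66 and 10.01 to 8.55 and 8.16 (-1.48 ± 0.17, adjusted p = 0.00223). Isg15, a ubiquitin-like interferon product, fell by 0.96 ± 0.21, and Oasl2 rose by 1.03 ± 0.22.

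Splicing factors and general RNA-binding proteins had 8 of 58 genes lower and 4 higher. Hnrnpf went from 8.83 and 8.73 in WT Treg to 5.75 and 7.32 in NIKtg Treg, where only 1 array detected it (-2.24 ± 0.45, adjusted p = 0.0158). Hnrnpa1 went from 10.31 and 10.34 to 8.33 and 9.34 (-1.49 ± 0.30, adjusted p = 0.0164), and Hnrnpk from 9.44 and 9.13 to 7.46 and 8.29 (-1.41 ± 0.29, adjusted p = 0.0165). In all 3 the level was clearly lower on NIKtg Treg 1 than on NIKtg Treg 2. Other probes did not follow: the second Hnrnpa1 probe was at 0.20 and not called, and the second Hnrnpk probe was called higher (0.37), so that the mean of the Hnrnpk probes was not called (-0.52, adjusted p = 0.0536). Of the 8 lower splicing genes, 5 were over 0.5 lower on NIKtg Treg 1 than on NIKtg Treg 2, and without NIKtg Treg 1 the count was 5 lower and 2 higher, with 1 to 8 lower over the 4 leave-outs. Hnrnph1 was the steadiest, with 4 of its 5 probes called lower (-0.74 to -1.96) and its call held in all 4 leave-outs. Rbfox2, a splicing regulator of muscle and nerve, was below detection in WT Treg and at least 2.42-fold higher (adjusted p = 0.00216). Of 55 chromatin genes, 8 were lower and 4 higher: Rbbp7, a histone-binding subunit of several repressor complexes, fell from 8.87 and 8.59 to 6.54 and 7.20 (-1.86 ± 0.26, adjusted p = 0.00463), Ezh2, the PRC2 methyltransferase, by 0.93 ± 0.17, and Hdac1, a histone deacetylase, rose by 0.66 ± 0.13. Of 44 translation factors, 4 were called higher and 5 lower. Eif4b was at least 2.07-fold lower and Eef2 fell by 1.01 ± 0.21, with NIKtg Treg 1 the lower array in both.

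Outside these lists, the genes with the smallest adjusted p in each direction included the following. Whrn, whirlin, a scaffold of hair cell stereocilia, read 9.27 and 9.31 in WT Treg and 11.76 and 11.59 in NIKtg Treg (2.38 ± 0.10, adjusted p = 0.000182). Eef1akmt1, a lysine methyltransferase of an elongation factor, went from 9.03 and 8.84 to 11.03 and 10.72 (1.93 ± 0.14, adjusted p = 0.000724). Tcf7l1 (TCF3), a Wnt pathway transcription factor, rose by 1.85 ± 0.13 and Pdgfb, a growth factor of mesenchymal cells, by 1.62 ± 0.13. Ly6d, a surface marker of early B cells and keratinocytes, was below detection in WT Treg and at least 3.5-fold higher (adjusted p = 0.000724). In the other direction, Slc40a1, ferroportin, the iron exporter, went from 9.02 and 9.22 to 6.71 and 6.94 (-2.29 ± 0.19, adjusted p = 0.00097). Slc40a1 is abundant in macrophages, whose markers fell as given above. Stra6, the retinol uptake receptor, was at least 3.47-fold lower and below detection in NIKtg Treg (adjusted p = 0.000189). Slc28a2, a nucleoside transporter, was at least 2.73-fold lower (adjusted p = 0.00106), Pcyt1b, of phosphatidylcholine synthesis, at least 2.38-fold lower (adjusted p = 0.00025), and Il18, a cytokine of the IL-1 family, at least 2.11-fold lower (adjusted p = 0.000966). Of larger size, Plac8 rose from 8.01 and 7.94 to 10.92 and 10.54 (2.76 ± 0.38) and Tmem176a from 6.13 and 6.21 to 8.96 and 8.98 (2.80 ± 0.28). All 12 genes of this paragraph held in all 4 leave-outs.

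Agreement between probes of a gene was examined because 2087 tested genes had more than 1 kept probe. Of the 390 genes with several probes whose brightest probe was called, the second-brightest had the same sign in 306 (78.5%), was called in the same direction in 158 (40.5%) and was called in the opposite direction in 19. Agreement rose with the size of the change. For changes of the brightest probe under 0.5, the second was called the same way in 24.7% of 81 genes. The share was 33.7% of 202 genes for changes of 0.5 to 1, and 65.4% of 107 genes for changes of 1 or more. Decreases agreed more than increases: the second probe was called the same way in 52.5% of 198 decreases and in 28.1% of 192 increases. This difference was not tested. With every kept named probe tested by itself, 2310 of 10819 probes (21.4%) were called, 1014 higher and 1296 lower, so that decreases outnumbered increases among probes but not among genes.

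**Figure D4:**
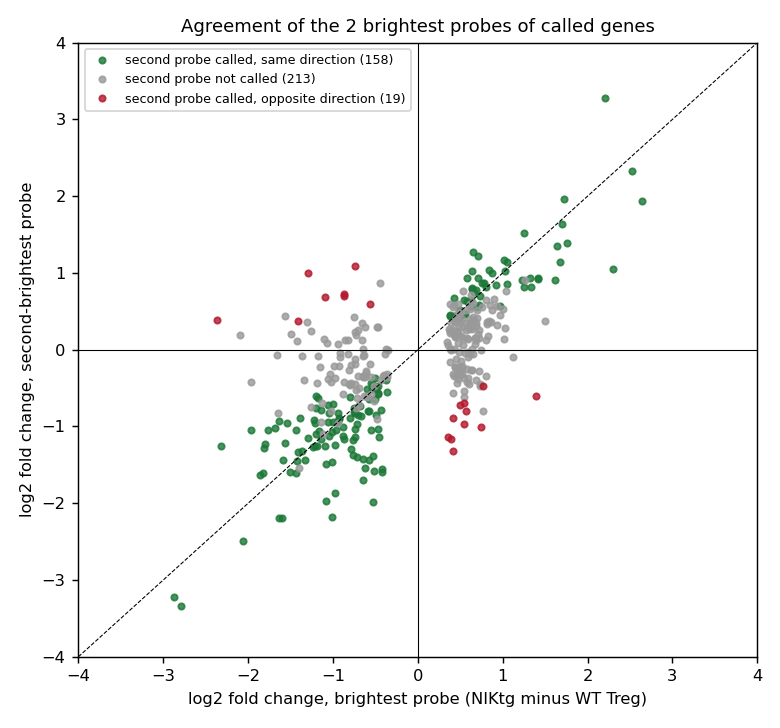
log2 fold change of the second-brightest probe (vertical) against that of the brightest (horizontal) for the 390 called genes with several probes; the dashed line marks equality. Green points (158) were called in the same direction, grey points were not called on the second probe, and red points (19) were called in the opposite direction.

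In 133 genes, 38 higher and 95 lower, all kept probes were called in 1 direction, and of 638 genes with at least 3 kept probes this held for 22. Itgae had the most probes of these: all 6 were lower, by -1.32 to -3.35. Lmna, which encodes the nuclear lamins A and C, was called higher on all 5 probes, by 0.98 to 2.65, and its brightest probe went from 6.38 and 6.44 to 9.32 and 8.79. Cldn10, a tight junction claudin, was higher on 3 probes (1.60 to 2.52), and Dscam, an adhesion molecule of the nervous system, on 3 (1.45 to 1.70). Capn2, a calpain protease, was lower on 3 probes (-1.43 to -1.57), Syngr2, a vesicle membrane protein, on 3 (-1.33 to -1.44), Sdcbp2, a syndecan-binding adaptor, on 3 (-0.97 to -2.72) and Acot7, an acyl-CoA thioesterase, on 4 (-0.76 to -2.14). These genes varied in the size of the change by probe, with dimmer probes of Itgae, Sdcbp2 and Acot7 showing the largest decreases.

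In 32 genes, probes were called in opposite directions. Actb, beta-actin, was the widest case, with all 5 probes assigned to 1 transcript record. Its 2 brightest probes were not called (0.23 and -0.16), the third fell from 13.06 and 12.77 in WT Treg to 10.47 and 11.36 in NIKtg Treg (-2.00 ± 0.28, adjusted p = 0.00422), and the other 2 rose by 1.68 and 1.69. Cd247, the CD3 zeta chain, fell on its brightest probe from 10.32 and 10.20 to 7.60 and 8.19 (-2.37 ± 0.25) and rose on its other 2, by 0.39 and 0.64, again on 1 transcript record. A single direction therefore cannot be given for Actb or Cd247. Rgs3, a regulator of G protein signalling, was lower on 3 probes (-1.02 to -1.31), higher on 1 (0.99) and not called on 2. Add1, adducin, was higher on its brightest probe (0.61) and lower on its 2 dimmest (-0.73 and -1.36), which belong to another transcript record. Gipc1, an adaptor of receptor trafficking, was higher on 2 probes (0.71 and 1.22) and lower on 1 (-1.02), and Drg1, a GTP-binding protein, was lower on 2 (-0.72 and -1.40) and higher on 1 (0.85). For Actb, Cd247 and Drg1 the falling probes were lower on NIKtg Treg 1 than on NIKtg Treg 2 by 0.5 or more. The files do not say where along the transcript each probe lies, and the part of RNA quality in these differences was not tested.

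**Figure D5:**
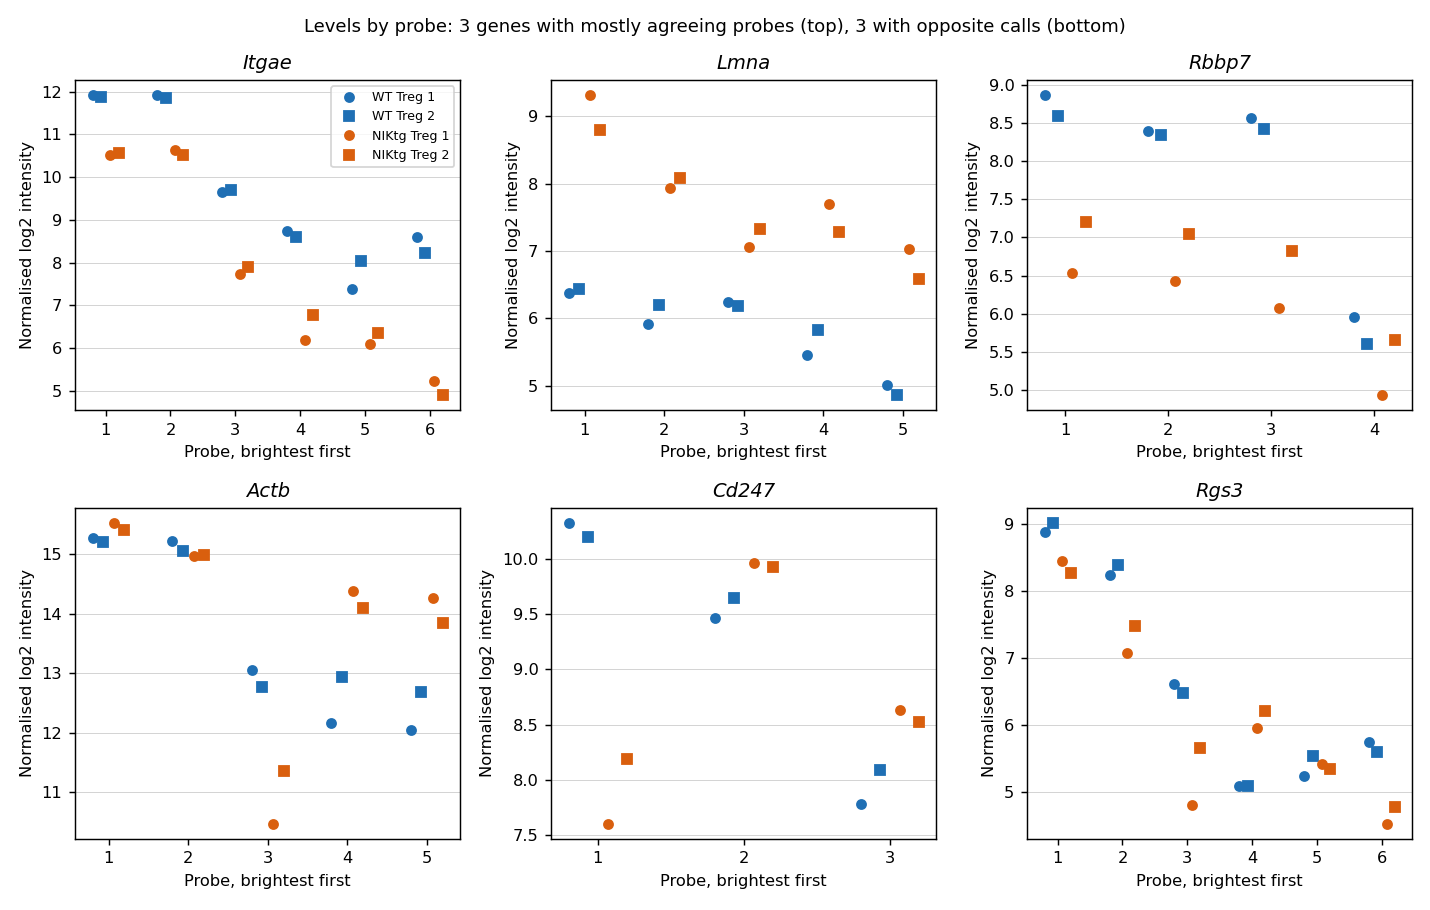
Normalised log2 intensity by probe, ordered from brightest to dimmest over the 8 arrays, for Itgae, Lmna and Rbbp7 (top) and Actb, Cd247 and Rgs3 (bottom), with colours and symbols as in the plot of presentation genes. In the top row the groups separate in 1 direction on all probes but the dimmest of Rbbp7, and in the bottom row they separate in both directions.

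In Tconv the same genotype contrast had the opposite sign for 73.9% of the genes called in Treg, and for 67.2% of all tested genes. Of the 1559 genes called in Treg, 156 were also called in Tconv in the same direction and 629 in the opposite direction, while in Tconv 30% of all tested genes were called (12.8% higher and 17.2% lower). The effect differed between Treg and Tconv for 3092 genes (39%) and for 1262 of the 1559. Unnormalised mean intensity overlapped between the Tconv genotypes, at 557 and 667 on the WT Tconv arrays and 618 and 777 on the NIKtg Tconv arrays. Genes with the same direction in both included Nfkb2, Whrn and Slc40a1, whose Tconv log2 fold changes were 1.45, 2.97 and -2.06. Opposite directions were seen for Alcam (1.72 in Tconv, with 1 WT Tconv array detecting it), Gdi2 (2.13), Rbbp7 (2.03), Pfkp (1.62), Tdrp (-1.66), Plac8 (-3.12) and Tmem176a (-2.23).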

How the data were processed

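RNA of 8 sorted T cell samples was labelled with biotin and read on 1-colour Illumina bead arrays. The unnormalised intensity values and their detection p-values were exported by the authors from GenomeStudio 2010.1, per the submitters' processing notes. The authors also deposited normalised linear intensity values, whose ranks equal those of the unnormalised ones. Here the unnormalised values were corrected with limma 3.58.1 (nec, with negative controls inferred from detection p-values, offset 16), quantile-normalised and put on a log2 scale in R 4.3.3. Kept were 11526 of 25697 probes, those detected at p under 0.01 on at least 2 of 8 arrays, of which 10819 had a gene symbol in the platform annotation. The brightest kept probe stood for each of 7926 genes. All 8 arrays entered 1 limma fit (lmFit and eBayes) of 4 groups, with Benjamini-Hochberg adjustment and a threshold of 0.05. The number of arrays limits precision: there were 4 residual degrees of freedom, to which eBayes added 3.43.

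Tested on simulated data for this contrast, the fit called 28.4% of genes changed by 0.5 on the log2 scale, 89.6% at 1 and 100% at 2, with 8.23% of calls false. Same-numbered WT Treg and NIKtg Treg arrays did not deviate together (r = -0.019), so the numbers were not used as pairs. Weak positive values were seen for WT Treg with WT Tconv (r = 0.134) and NIKtg Treg with WT Tconv (r = 0.141). A fit with the replicate number as a block is therefore among the alternatives. The comparison and its gene lists were chosen with earlier results of these data known. Named genes were the checks of sort and transgene, the largest changes, up to 8 called and up to 3 uncalled members a list by size of change, the genes with the widest agreement or disagreement between probes, and the 10 smallest adjusted p in each direction outside the lists. H2-Oa, Tap1, Erap1, H2-M3, H2-T23, Nfe2l2, Gclm, Pecam1, Icam2, Apbb1ip, S100a4, Il2rb and Cenpa fall outside that rule and were chosen after their values were seen. Alternatives were the arrays fitted, normalisation, background, detection filter, probe choice, eBayes options, a replicate block and leaving out each Treg array.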

Additional observations from a re-analysis of the deposited data

Results flagged for a closer look

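Listed here are named genes whose brightest probe was called in opposite directions, by at least 2-fold, in Treg and Tconv. The interaction term of the limma fit also had to pass at an adjusted p under 0.05. The rule itself therefore fixes that the NIKtg effects differ, and the sizes only describe the genes it chose. Values are the log2 fold change in Treg minus that in Tconv, and each rests on 2 arrays a group. The difference was positive for Plac8 (5.88), Tmem176a (5.03), Atp1b1 (3.70), Tdrp (3.69), Ccr6 (2.77) and Bcat2 (2.24). It was negative for Il10ra (-4.06), Rbbp7 (-3.89), Alcam (-3.87), Hnrnpf (-3.66), Acadl (-3.61) and Pfkp (-3.30). It was also negative for Glud1 (-3.26), Phgdh (-3.15), Atf4 (-3.08), Tpm3 (-2.86), Capn2 (-2.62), Bcl2a1d (-2.46) and Eef2 (-2.05). Some of these sizes are less secure. With 1 Treg array left out, the Treg log2 fold change ran from -3.03 to -1.46 for Hnrnpf and -1.65 to -1.02 for Acadl. It ran from -1.80 to -1.06 for Capn2, -1.15 to -0.95 for Bcl2a1d and -1.33 to -0.70 for Eef2. The dimmer probes of Glud1 and Acadl were not called in Treg. Only 1 NIKtg Treg array detected Phgdh, and only 1 detected Hnrnpf. For 12 further genes a Treg or Tconv group was below detection, so no size is given: Asns, Bik, Dusp14, Eif4b, Gdi2, Ifitm3, Il18, Ltb4r1, Mgst3, Pcyt1b, Rabgap1l and St8sia1. For Cd247 and Hnrnpk the probes of the gene were called in opposite directions in Treg, so no size is given either. Over all tested genes, 3092 (39%) differed at an adjusted p under 0.05. Before normalisation, mean intensity was lower on both NIKtg Treg arrays than on both WT Treg arrays. In Tconv the means of the 2 genotypes overlapped. The part of array intensity in the differences was not tested.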

How the results depend on the processing

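The count of genes called in NIKtg Treg against WT Treg was 1559. It was 1958 from the authors' normalised values and also without background correction, 1091 from the 4 Treg arrays alone and 1283 with no detection filter. Leaving out 1 Treg array gave 494 to 1550 genes. The 426 genes called with at least a 2-fold change became 154 from the authors' values, 154 without background correction, 216 with probes detected on all 4 Treg arrays and 755 with every probe as its own feature. The authors' values and the uncorrected ones keep background, which shrinks fold changes of dim probes. With 1 array left out this count was 322 to 583. Genes with probes called in opposite directions numbered 32, and 54 with the authors' values and 21 with probes detected on all 4 Treg arrays. With a replicate block, 1538 genes were called, 430 of them at least 2-fold, and of the 168 called genes named here 165 kept the call. Under the mean of a gene's probes, Add1 turned to -0.48 and Rab6a to 0.10, each because its probes disagree in sign. Of those 168 named genes, 77 kept the call with any 1 Treg array left out and 91 lost it at least once. The count that differed between Treg and Tconv was 3092, and 2068 to 3075 with 1 array left out. Under median centring the calls of Acot7, Ddit4, Dhcr7, Dusp6, Edem1, Ly86, Pdia3, Sec23a, Tyrobp, H2-M3, H2-Q8 and H2-T23 were lost. For 241 called genes a group below detection leaves only a bound.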
